A study of Mus musculus with 4 samples.

Results

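The genes described here build the extracellular matrix and the basement membrane: collagen chain genes (symbols of the form Col, number, a, number), laminin chain genes (Lama, Lamb and Lamc), and Nid1, Nid2, Agrn, Fn1, Sparc and Sparcl1. They were chosen by symbol and not by their values, and 50 of the 15409 gene rows are described; Hspg2, which codes for perlecan, was not analysed here. RNA was sequenced from septal tissue of TCRb-/- mice, which lack the T cell receptor beta chain, and of wild-type (WT) mice. Every animal of both genotypes had gone through 30 min of restraint on each of 3 days, the last 1.5 h before tissue was taken, so no group was unstressed. There were 4 libraries, 2 per genotype, each from a pool of 4 to 5 mice, and each of the 2 experiments gave 1 TCRb-/- library (replicate number as the experiment) and 1 WT library. The labels give no strain background, age or sex. The beta chain was missing in the whole animal, so the genotype names no single cell type, and a replicate is a pool of mice rather than a mouse.

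Basement membranes are thin sheets on which epithelia, vessels and the glial surface of the brain rest. Laminins, trimers of an alpha, a beta and a gamma chain, form one polymer of the sheet and type IV collagen forms the other, with nidogens, perlecan and agrin tying them together. In the brain such sheets surround blood vessels and lie under the pia and the choroid plexus epithelium, while fibrillar collagens are made mainly by fibroblasts of the meninges and of the choroid plexus stroma.

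The 4 promoters below are shown because the type VIII and type VI chain pairs differed by 4.24 to 7.15 times between their highest and lowest libraries. Each is the 250 bases before the RefSeq start site in GRCm38.p6, 5′ to 3′ on the gene's own strand, with capitals for the GC box GGGCGG on either strand (CCGCCC when read on the other strand). Col8a1 is chr16:57754738-57754987 on the minus strand, Col8a2 is chr4:126286544-126286793 on the plus strand, Col6a1 is chr10:76726045-76726294 on the minus strand and Col6a2 is chr10:76623631-76623880 on the minus strand.
Col8a1: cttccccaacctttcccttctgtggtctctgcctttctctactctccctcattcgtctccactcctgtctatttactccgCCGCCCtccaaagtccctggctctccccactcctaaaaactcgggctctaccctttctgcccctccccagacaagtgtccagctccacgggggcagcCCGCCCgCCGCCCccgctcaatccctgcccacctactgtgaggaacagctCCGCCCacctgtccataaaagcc
Col8a2: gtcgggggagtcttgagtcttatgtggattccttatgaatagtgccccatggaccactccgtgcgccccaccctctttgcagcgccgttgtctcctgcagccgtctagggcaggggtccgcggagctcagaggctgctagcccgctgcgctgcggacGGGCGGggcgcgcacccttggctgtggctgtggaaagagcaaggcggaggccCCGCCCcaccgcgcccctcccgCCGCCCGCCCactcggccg
Col6a1: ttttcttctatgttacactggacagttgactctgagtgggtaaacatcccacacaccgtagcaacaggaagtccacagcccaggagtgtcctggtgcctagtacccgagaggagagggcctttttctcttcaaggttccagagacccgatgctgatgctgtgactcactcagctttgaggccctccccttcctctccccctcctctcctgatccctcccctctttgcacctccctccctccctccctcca
Col6a2: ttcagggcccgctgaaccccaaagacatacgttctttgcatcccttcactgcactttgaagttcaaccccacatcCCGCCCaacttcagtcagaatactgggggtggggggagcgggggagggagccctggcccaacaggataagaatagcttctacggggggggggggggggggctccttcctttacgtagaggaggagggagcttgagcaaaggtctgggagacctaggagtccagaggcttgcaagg
The Col8a1 window held 4 GC boxes, starting 170, 73, 66 and 23 bases before the start site, and the Col8a2 window also held 4, starting 93, 41, 19 and 15 bases before it, the last pair overlapping. The Col6a2 window held 1 GC box, 175 bases before the start site, and these letters were not found in the Col6a1 window, whose RefSeq start lies 124 bases from the GENCODE start. By symbol, 34 of the 50 members had an entry in the set of RefSeq promoters used here. Of these 34, 21 (61.8%) held a GC box, against 32.7% of the 32851 promoters in that set. Each member entered with 1 window, the one nearest its GENCODE start, while all entries of a gene were kept among the 32851. Some member windows still lay far from the GENCODE start, by 94295 bases for Lamb3, 49344 for Col25a1, 3103 for Sparc, 2816 for Lama2 and 1408 for Col27a1. Of these, Col25a1 and Col27a1 are counted as holding a GC box. The CCAAT box (letters CCAAT, either strand) was in 13 of the 34 windows (38.2%) against 33.8% of all windows, and the TATA box (TATAAA) in 3 of 34 (8.82%) against 12.4%. The letters TAATCC, the core bound by the Otx factors, were in 1 of the 34 windows (Lamb2) against 6.25% of all. These matches describe the sequences and are not evidence of binding.

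Col4a2 and Col4a1 face away from each other on chromosome 8, and their annotated first exons overlap by 22 bases. The stretch is shown because reads in it cannot be given to one of the genes without strand; it covers chr8:11312801-11312830 on the plus strand, with the shared bases, from the Col4a2 start at 11312805 to the Col4a1 start at 11312826, in capitals.
Col4a2 and Col4a1: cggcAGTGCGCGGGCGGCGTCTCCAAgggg

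Library totals were 19988137 to 26210790 reads, and 1 read was worth 0.0382 to 0.050 CPM, the reads scaled to a common library total. Trbc2, a constant segment of the deleted receptor chain, had 0 reads in both TCRb-/- libraries and 169 and 86 reads in WT replicates 1 and 2. Of 9 septal neuron markers, 8 were among the rows, and their summed level was 169 to 197 CPM in the 4 libraries. Markers of neighbouring tissue differed far more between libraries. The 15 choroid plexus epithelium markers summed to 1415 and 4960 CPM in TCRb-/- libraries 1 and 2 and to 783 and 2916 CPM in WT replicates 1 and 2. The 11 striatal projection neuron markers summed to 4563 and 1024 CPM in TCRb-/- and to 4094 and 2492 CPM in WT. The 7 markers of cortical and hippocampal excitatory neurons summed to 213.7 and 48.5 CPM in TCRb-/- and to 271 and 46.5 CPM in WT. No listed marker of these lists was at 0 in any library. In such bulk tissue, fewer cells of a type and less RNA per cell cannot be told apart.

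Levels of different genes were compared per length, as CPM per kb of the longest coding transcript. Sparcl1 and Sparc, secreted matricellular proteins made in brain mainly by astrocytes, other glia and vessels, had by far the highest mean levels, at 200.1 and 97.2 CPM per kb. Next came Col9a3 at 12.9 CPM per kb, a chain of the type IX collagen that decorates fibrils, followed by Col25a1 at 3.93 CPM per kb, a neuronal membrane collagen, and Agrn at 3.64 CPM per kb, the heparan sulfate proteoglycan agrin. Col9a2, Col8a2, Col6a1 and Col8a1 lay between 2.74 and 2.88 CPM per kb, and the differences among these 4 were within their spread over libraries. The lowest mean levels were those of Col4a4 at 0.0467, Col22a1 at 0.0540 and Col4a3 at 0.0694 CPM per kb. Per kb of all annotated exons, a length chosen after the data were seen, Sparcl1 and Sparc were at 187.9 and 59.0 and Col9a3 at 10.2 CPM per kb, still the 3 highest. The order below them changed on that length: Col25a1, at 2.03 CPM per kb, came after Agrn at 2.85, Col8a2 at 2.74, Col9a2 at 2.72 and Col6a1 at 2.58. Before division by length, the SPARC family and Fn1 made up 71.4% to 78.0% of the CPM of all 50 members in a library.

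**Figure D1:**
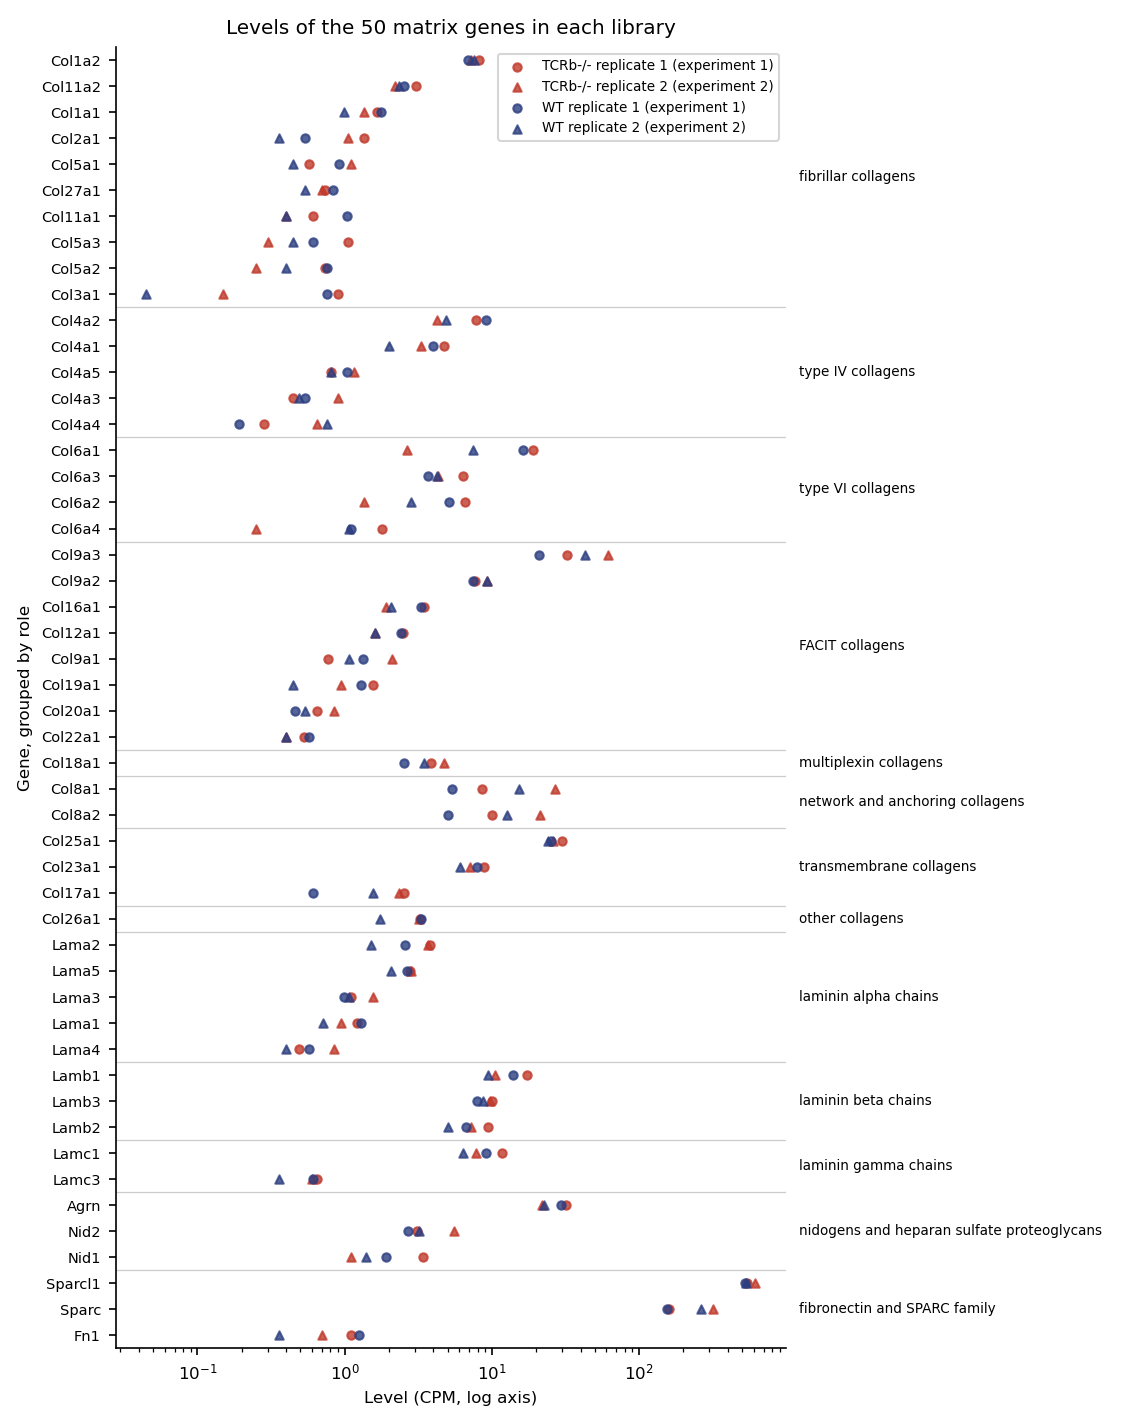
Level of each of the 50 genes in CPM on a log axis, 1 point per library, with red for TCRb-/-, blue for WT, circles for experiment 1 and triangles for experiment 2, and genes grouped by role and ordered by mean level. Sparcl1 lies at 524 to 614 CPM in all 4 libraries, Col8a1 spans 5.34 to 26.8 CPM, and Col6a1 spans 2.65 to 19.0 CPM.

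The first comparison asked whether matrix genes differ between TCRb-/- and WT septal tissue. No member passed the test. Of the 50 members, 35 had a mean of 1 CPM or more and entered it, and 0 of 35 were called by limma at an adjusted p under 0.05, as were 0 of all 13912 genes tested (0%). The test was fitted to log2(CPM + 1) with genotype as its only term, and the adjusted p was 1.00 for every member. At an unadjusted p under 0.05, limma gave 2 of 35 members (5.71%), Col17a1 and Lama2, against 43 of 13912 genes (0.309%). With the experiment as a block, the adjusted p of limma called 0 of 35 members and 2 genes of the whole table (0.0144%), neither of them a member. At an unadjusted p under 0.05 the blocked fit gave 7 of 35 members (20%), all higher in TCRb-/-, against 784 genes (5.64%), of which 439 were higher in TCRb-/- (3.16% of the genes tested). These 7 were Col8a1, Col8a2, Col9a3, Col17a1, Col18a1, Lama2 and Lamb2. With 2 libraries a genotype, no exact permutation test of 1 gene can reach a p below 0.333, and all p-values measure the spread between pools. In the fit with genotype as its only term, the 2 pools of a genotype came from different experiments. That spread therefore includes the difference between experiments, which the blocked fit takes out.

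The direction within experiments leaned to TCRb-/-. In both experiments 25 of the 50 members (50%) were higher in the TCRb-/- library, against 26.9% of all 15409 rows. Only Col11a1, Col22a1, Col4a2 and Col5a2, 4 of 50 (8%), were lower in both, against 24.5% of all rows. Both TCRb-/- libraries lay above both WT libraries for 12 members (24%), against 10.1% of all rows, and below them for 0 members, against 8.48% of all rows. The median difference over the 50 members was 0.13 in experiment 1 and 0.22 in experiment 2 on the log2(CPM + 1) scale, and 0.0071 and 0.0036 over all rows. Markers of some other cells moved the same way: 15 of 15 choroid plexus epithelium, 8 of 10 ependymal and 8 of 10 astrocyte markers were higher in TCRb-/- in both experiments. In the other marker lists this ran from 0 of 11 striatal projection neuron and 0 of 8 oligodendrocyte markers to 5 of 9 microglia markers. The part of these cells in the members' direction was not tested. The 10 ependymal markers summed to 179.8 and 217.6 CPM in TCRb-/- libraries 1 and 2 and to 138.4 and 196.8 CPM in WT replicates 1 and 2, with none at 0.

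**Figure D2:**
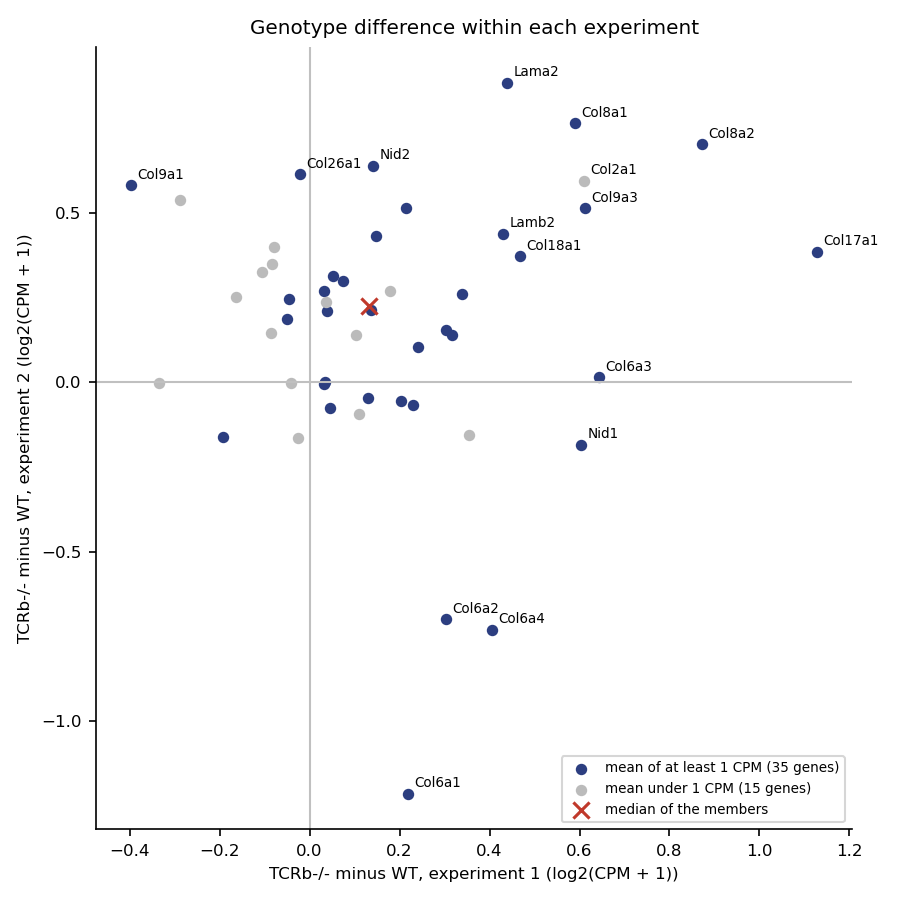
Difference between the TCRb-/- and the WT library in experiment 1 (x axis) and in experiment 2 (y axis), both in log2(CPM + 1), 1 point per gene, blue for the 35 genes whose mean reaches 1 CPM, grey for the other 15, and a red cross for the median of all 50. Col8a1, Col8a2, Col9a3, Lama2 and Lamb2 lie above 0 on both axes, and Col6a1 lies at 0.22 and -1.21.

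The second comparison was between the experiments, which the labels name as batches, and it is the background against which the genotype is read. Between experiments, 10 of 35 members (28.6%) passed limma's adjusted p, against 3292 of 13912 genes (23.7%). Sparc, Col8a1, Col8a2 and Col9a3 were higher in experiment 2, 4 of 35 members (11.4%) against 8.95% of all genes tested. Col6a1, Col6a2, Col4a2, Lamb1, Col16a1 and Agrn were lower, 6 of 35 members (17.1%) against 14.7%. The blocked fit called 10 members as well (24.7% of all genes), with Lamc1 in place of Col16a1. Both libraries of experiment 2 lay below both of experiment 1 for 25 of 50 members (50%), against 36% of all rows, and above them for 7 members (14%), against 29.4%. The median difference over the 35 members, experiment 2 minus experiment 1, was -0.27 on the log2(CPM + 1) scale, and -0.03 over all genes tested. The members' transcripts are 2300 to 11511 bases long, and with the trend of each library on transcript length removed in the blocked fit that median was -0.07. It was also nearer 0 without TCRb-/- replicate 1 (-0.11), without WT replicate 2 (-0.13) and with a pseudocount of 5 (-0.12), and it was 0.10 over the 9 members with a mean of 10 CPM or more. Moderation without a trend left 3 of the 10 calls.

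**Figure D3:**
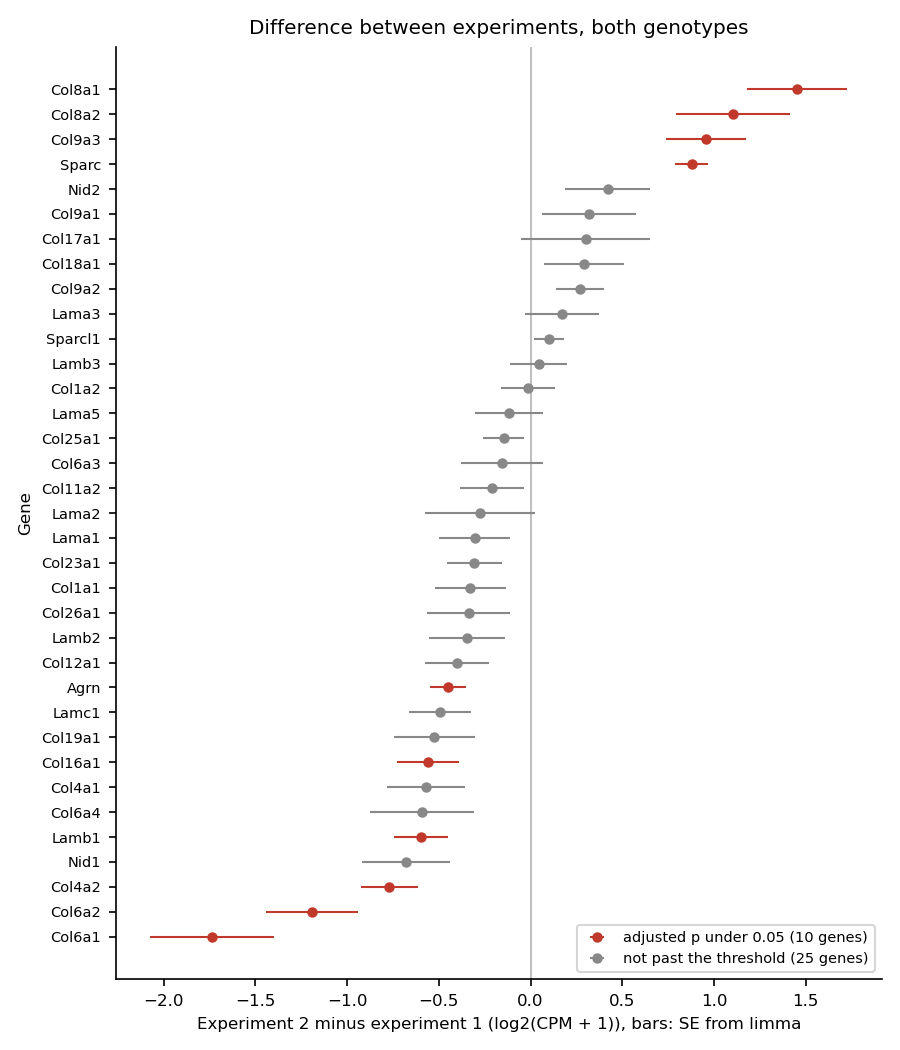
Difference between experiment 2 and experiment 1 in log2(CPM + 1) for the 35 genes tested, with the standard error from limma as bars, and red for the 10 genes with an adjusted p under 0.05. Col8a1 is the highest at 1.45 and Col6a1 the lowest at -1.73.

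Among the fibrillar collagens, which form the cables of connective tissue, 10 of 11 genes were listed and 3 passed the filter, Col1a1, Col1a2 and Col11a2. None was called in either comparison. Col1a2, the alpha 2 chain of type I collagen, had 8.18 and 7.20 CPM in the TCRb-/- libraries of experiments 1 and 2 and 6.83 and 7.60 CPM in the WT libraries, so the genotypes overlapped. Per length Col1a2 was 4.31 to 8.57 times Col1a1, although type I collagen holds more alpha 1 than alpha 2 chains. Col3a1, the type III chain abundant in fibroblasts, was the lowest by CPM, with 22 and 3 reads in TCRb-/- and 20 and 1 reads in WT. Both libraries of experiment 2 were at or under 3 reads, the upper limit that a count of 0 allows, so no fold between experiments is given. Col2a1, the chain of cartilage fibrils, was at 1.34 and 1.05 CPM in TCRb-/- and 0.534 and 0.358 CPM in WT, from 33, 21, 14 and 8 reads. Its genotypes did not overlap, with TCRb-/- higher by 0.61 in experiment 1 and 0.59 in experiment 2, and it was under the filter and had no test. The 9 listed meningeal fibroblast markers, of 10, summed to 19.6 and 19.6 CPM in TCRb-/- and to 27.0 and 14.0 CPM in WT, with none at 0.

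Type IV collagen forms the network of every basement membrane, and in vessels it is made of Col4a1 and Col4a2 chains. Col4a2 (chromosome 8 from 11312805 to 11449287, plus strand) had 7.85 and 4.25 CPM in the TCRb-/- libraries of experiments 1 and 2 and 9.12 and 4.88 CPM in the WT libraries. Both libraries of experiment 2 were below both of experiment 1, and Col4a2 fell by 0.77 by limma (SE 0.15, adjusted p = 0.0140). Without WT replicate 1 it was -0.67 with a limma adjusted p of 0.0789, and over the other alternatives with all libraries the adjusted p ran from 0.0109 to 0.0444. Col4a1 (11198423 to 11312826, minus strand) had 4.76 and 3.30 CPM in TCRb-/- and 3.97 and 2.01 CPM in WT, again lower in both libraries of experiment 2 than in both of experiment 1, but its difference of -0.57 (SE 0.21) did not pass, with a limma adjusted p of 0.0877. The genotype differences of the pair had opposite signs: Col4a1 was higher in TCRb-/- by 0.21 and 0.51 in experiments 1 and 2, and Col4a2 was at -0.19 and -0.16, and neither passed the test. Per length, Col4a2 over Col4a1 was 1.69 and 1.32 in TCRb-/- and 2.36 and 2.48 in WT, so the ratio was lower in both TCRb-/- libraries; the ratio was chosen after its values were seen and has no test. Vessel markers were low throughout: the 10 listed endothelial markers of 13 summed to 19.4 to 23.1 CPM in TCRb-/- and 17.1 to 20.2 CPM in WT, and none was at 0. The 10 listed mural cell markers of 11, from pericytes and smooth muscle, summed to 72.7 and 32.7 CPM in TCRb-/- and to 65.3 and 34.2 CPM in WT, with none at 0, and 5 of the 9 tested were lower in experiment 2 by limma. Their part in the lower Col4a2 of experiment 2 was not tested. Col4a3, Col4a4 and Col4a5, chains of other type IV networks, had means of 0.472 to 0.950 CPM and no test.

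Type VI collagen makes beaded filaments next to basement membranes, and Col6a1, Col6a2 and a longer chain such as Col6a3 assemble into 1 molecule. Col6a1 (chromosome 10 from 76708792 to 76726168, minus strand) had 19.0 and 2.65 CPM in the TCRb-/- libraries of experiments 1 and 2 and 16.1 and 7.47 CPM in the WT libraries. The order was TCRb-/- above WT in experiment 1 and far below it in experiment 2. Col6a1 fell by 1.73 between experiments on the log2(CPM + 1) scale (SE 0.34, limma adjusted p = 0.0129). Col6a2, which lies on the same strand of the same chromosome (76595762 to 76623630), had 6.59 and 1.35 CPM in TCRb-/- and 5.15 and 2.82 CPM in WT, the same order of libraries, and fell by 1.19 (SE 0.25, limma adjusted p = 0.0158). Without TCRb-/- replicate 1 both calls were lost, at -1.62 for Col6a1 and -1.04 for Col6a2 with limma adjusted p of 0.0630 and 0.0862, and without TCRb-/- replicate 2 the Col6a1 difference was -1.13. Over the other alternatives the adjusted p ran from 0.00705 to 0.0611 for Col6a1 and from 0.0124 to 0.0564 for Col6a2. The genotype difference of Col6a1 was 0.22 in experiment 1 and -1.21 in experiment 2, and Col6a2 had 0.30 and -0.70. Without TCRb-/- replicate 1, Col6a1 was the 1 member called by genotype, at -1.72 with a limma adjusted p of 0.0316; it is then a comparison of the lone TCRb-/- library of experiment 2, assumed to vary like WT, with WT libraries of both experiments, and with all libraries the adjusted p was 1.00.

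The order of libraries was another one for Col6a3, with 6.35 and 4.30 CPM in TCRb-/- and 3.70 and 4.25 CPM in WT. Its genotypes did not overlap, by a narrow margin in experiment 2 (0.01 on the log2(CPM + 1) scale), and it passed neither test. Per length, Col6a1 over Col6a2 stayed between 2.23 and 3.56, while Col6a3 over Col6a1 ran from 0.0930 in WT replicate 1 to 0.658 in TCRb-/- replicate 2. Col6a4 had 1.79 and 0.250 CPM in TCRb-/- and 1.11 and 1.07 CPM in WT, and TCRb-/- replicate 2, with 5 reads, was the lowest library.

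Striatal and some mural markers moved with the type VI chains. All 11 striatal projection neuron markers were lower in experiment 2 by limma, and their sum had the same order of libraries as Col6a1 and Col6a2. As a percent of that sum, Col6a1 was 0.259% to 0.415% and Col6a2 0.113% to 0.144% in the 4 libraries. These are ranges of 1.60 times and 1.28 times, against 7.15 times and 4.88 times for their CPM. Of the mural markers 5 of 9 tested, and of the cortical markers 5 of 7, also fell between experiments by limma. The mural sum shared the library order of Col6a1, with a range of 2.22 times against 4.46 times for the striatal sum. Of the single mural markers, only Pdgfrb, Rgs5, Acta2 and Tagln had this order. Tagln was highest in TCRb-/- replicate 1 (11.8 CPM), then WT replicate 1 (9.04), WT replicate 2 (3.40) and TCRb-/- replicate 2 (1.45). Shares of the mural sum were not taken. Acta2 of smooth muscle had 20.4 and 4.35 CPM in the TCRb-/- libraries of experiments 1 and 2 and 15.3 and 4.61 CPM in the WT libraries. The part of any of these cells in the differences of Col6a1 and Col6a2 was not tested.

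Type VIII collagen is a short-chain network collagen of specialised sheets, such as the one under the corneal endothelium, and is made of Col8a1 and Col8a2 chains. Col8a1 (chromosome 16 from 57624258 to 57754737, minus strand) had 8.54 and 26.8 CPM in the TCRb-/- libraries of experiments 1 and 2 and 5.34 and 15.3 CPM in the WT libraries. Col8a2 (chromosome 4 from 126286793 to 126314330, plus strand) had 10.05 and 21.4 CPM in TCRb-/- and 5.04 and 12.7 CPM in WT. Both genes had the same order, with both libraries of experiment 2 above both of experiment 1 and TCRb-/- above WT within each. Col8a1 rose by 1.45 between experiments (SE 0.27, limma adjusted p = 0.0116) and Col8a2 by 1.10 (SE 0.31, limma adjusted p = 0.0384). Without WT replicate 1 both calls were lost, at 1.16 and 0.67 with limma adjusted p of 0.0517 and 0.159, and Col8a2 also lost its call without TCRb-/- replicate 2, at 0.75 and 0.0604. Over the other alternatives the adjusted p ran from 0.00122 to 0.0577 for Col8a1 and from 0.00330 to 0.106 for Col8a2. Per length, Col8a1 over Col8a2 stayed between 0.721 and 1.06, so the chains were at like levels.

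TCRb-/- exceeded WT by 0.59 and 0.76 for Col8a1 and by 0.87 and 0.70 for Col8a2 in experiments 1 and 2. With the experiment as a block, the mean difference of Col8a1 was 0.68 (SE 0.13, limma adjusted p = 0.476) and that of Col8a2 was 0.79 (SE 0.13, limma adjusted p = 0.312). Neither passed over the whole table. Without the block and with 1 library left out, the Col8a2 difference ran from 0.19 without WT replicate 1 to 1.38 without WT replicate 2. Col9a3 (chromosome 2 from 180597790 to 180622189, plus strand), a chain of type IX collagen, had the same order of libraries, with 32.3 and 61.4 CPM in TCRb-/- and 20.8 and 42.8 CPM in WT. Its blocked genotype difference was 0.56 (SE 0.089, limma adjusted p = 0.291), and without the block and with 1 library left out it ran from 0.06 without WT replicate 1 to 1.07 without WT replicate 2. Col9a3 rose by 0.96 between experiments (SE 0.22, limma adjusted p = 0.0201), and without WT replicate 1 by 0.65 with a limma adjusted p of 0.0761. Over the other alternatives that adjusted p ran from 0.00144 to 0.0796. Its exons share 234 bases with Tcfl5 on the opposite strand, and the sources used here do not say whether the counting used strand.

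The choroid plexus epithelium markers had this order of libraries as well, and 14 of the 15 rose between experiments by limma. Ttr, the transthyretin gene that marks this epithelium, had 1204 and 4478 CPM in TCRb-/- and 638 and 2591 CPM in WT, and was one of the 2 genes called by genotype with the block. As a percent of the summed markers, Col8a1 was 0.526% to 0.682%, a range of 1.297 times against 5.01 times for its CPM. Col8a2 was 0.431% to 0.710% of the sum, a range of 1.65 times against 4.24 times. Col9a3 was 1.24% to 2.66%, a range of 2.14 times against 2.95 times. The order of Col8a1 and Col8a2 between genotypes was not kept in these shares: Col8a1 was at 0.604% and 0.540% in TCRb-/- and 0.682% and 0.526% in WT, and Col8a2 at 0.710% and 0.431% in TCRb-/- and 0.643% and 0.437% in WT. The share of Col9a3 was 2.29% and 1.24% in TCRb-/- and 2.66% and 1.47% in WT, so TCRb-/- was below WT in both experiments. Ttr alone made up most of the sum in every library, so these shares mainly set the collagens against Ttr. On the log2(CPM + 1) scale, TCRb-/- exceeded WT by 0.92 and 0.79 for Ttr in experiments 1 and 2. The median over the 15 markers was 0.51 and 0.56. Shares of the markers without Ttr were not taken. The ependymal, septal neuron and thalamic neuron marker sums also had the library order of these 3 collagens. As a percent of the ependymal sum, Col9a3 was 15.0% to 28.2%, a range of 1.88 times. As shares of the ependymal sum, Col8a1 and Col8a2 had ranges of 3.19 and 2.70 times. The part of any of these cells in the differences of these 3 collagens was not tested.

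**Figure D4:**
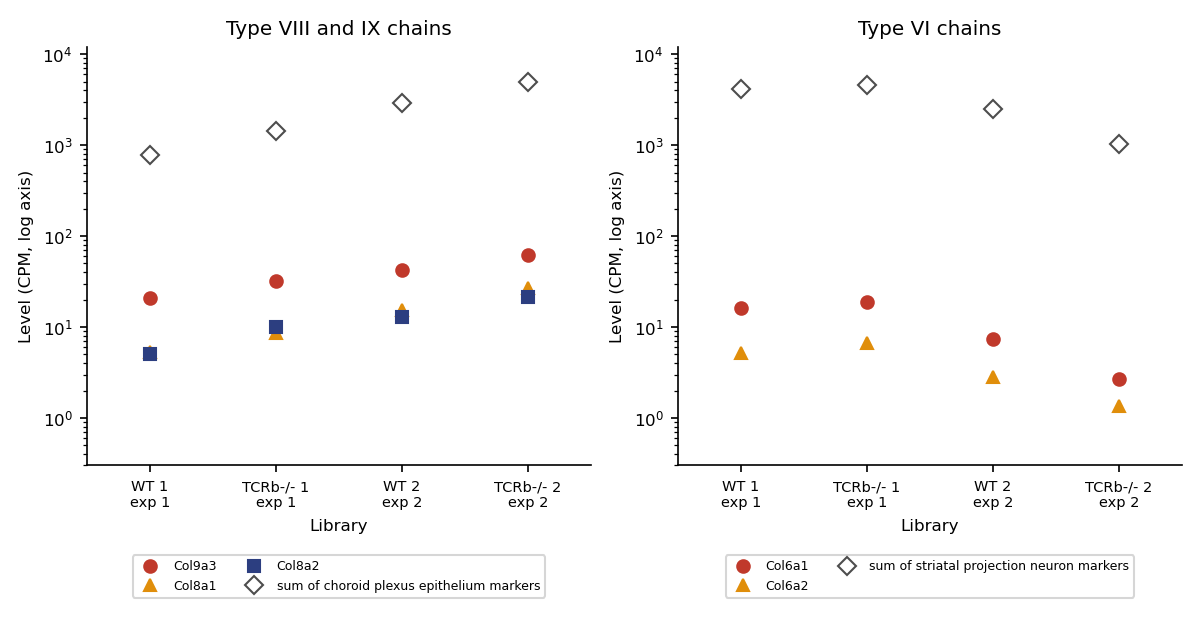
Levels in CPM on a log axis in the 4 libraries, at left Col9a3, Col8a1 and Col8a2 with the sum of 15 choroid plexus epithelium markers, at right Col6a1 and Col6a2 with the sum of 11 striatal projection neuron markers. At left all series are highest in TCRb-/- replicate 2, where the marker sum is 4960 CPM, and at right all are lowest there, where the marker sum is 1024 CPM.

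Of the other fibril-associated (FACIT) collagens, only Col16a1 was called between experiments. Col9a2 and Col9a1 code for the chains that assemble with Col9a3. Col9a2 had 7.65 and 9.31 CPM in TCRb-/- and 7.44 and 9.30 CPM in WT, with genotype differences of 0.03 and 0.0004, against 0.61 and 0.51 for Col9a3. Per length Col9a3 was 2.68 to 6.34 times Col9a2 and 19.6 to 52.7 times Col9a1. Col16a1 had 3.457 and 1.90 CPM in TCRb-/- and 3.32 and 2.06 CPM in WT. Col16a1 fell by 0.56 between experiments (SE 0.17, limma adjusted p = 0.0475), just past the threshold: with the block the adjusted p was 0.0599, over the other alternatives it ran from 0.0429 to 0.170, and without each of the 4 libraries in turn from 0.0635 to 0.177. Col22a1 was the lowest FACIT gene, at 0.529 and 0.400 CPM in TCRb-/- and 0.572 and 0.403 CPM in WT. Col20a1 had 0.651 and 0.851 CPM in TCRb-/- and 0.458 and 0.537 CPM in WT, from 12 to 17 reads a library. Its genotypes did not overlap, and it was under the filter.

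Col18a1, a heparan sulfate bearing collagen of vascular and epithelial basement membranes whose tail is endostatin, had 3.86 and 4.75 CPM in the TCRb-/- libraries of experiments 1 and 2 and 2.52 and 3.44 CPM in the WT libraries. Both TCRb-/- libraries were above both WT libraries, and the blocked difference was 0.42 (SE 0.17, limma adjusted p = 0.848). Col17a1, a membrane collagen of hemidesmosomes that binds laminin, had 2.52 and 2.35 CPM in TCRb-/- and 0.610 and 1.57 CPM in WT, from 62, 47, 16 and 35 reads. It had the largest genotype difference of any member in experiment 1, at 1.13, with 0.39 in experiment 2. The mean of 0.76 had an SE of 0.29 without the block (limma adjusted p = 1.00) and of 0.24 with it (limma adjusted p = 0.848). Col25a1, the neuronal membrane collagen, had 30.1 and 25.8 CPM in TCRb-/- and 25.3 and 24.0 CPM in WT. The genotypes did not overlap, by a margin of 25.8 against 25.3 CPM, and the difference of 0.17 (SE 0.15) did not pass. Col23a1 was at 6.04 to 8.83 CPM and Col26a1 at 1.74 to 3.32 CPM, the latter lowest in WT replicate 2, and both overlapped between genotypes.

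The laminin chains described were 5 alpha, 3 beta and 2 gamma chains. In both experiments 3 alpha, all 3 beta and both gamma chains were higher in TCRb-/-, and no chain was lower in both; none passed the genotype test. Lama2 codes for the alpha chain of muscle and of glial and pericyte basement membranes. It had 3.82 and 3.65 CPM in the TCRb-/- libraries of experiments 1 and 2 and 2.56 and 1.52 CPM in the WT libraries. The mean difference was 0.66, from 0.44 in experiment 1 and 0.88 in experiment 2 (SE 0.24, limma adjusted p = 1.00; with the block SE 0.20, limma adjusted p = 0.848). Exons of Lama2 share 631 bases with an antisense gene, Gm48084, which has no row of its own here. Lamb2, the beta chain of synaptic and vascular sheets, had 9.40 and 7.20 CPM in TCRb-/- and 6.71 and 5.05 CPM in WT. Its difference was 0.43 in experiment 1 and 0.44 in experiment 2 (blocked SE 0.14, limma adjusted p = 0.848).

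Lamb1, a widely expressed beta chain, had 17.3 and 10.5 CPM in TCRb-/- and 13.8 and 9.35 CPM in WT. Lamb1 fell by 0.60 between experiments (SE 0.15, limma adjusted p = 0.0247), and without TCRb-/- replicate 1 the difference was -0.44 with a limma adjusted p of 0.134, while over the other alternatives the adjusted p ran from 0.0140 to 0.0589. Lamc1, the gamma chain of most laminins, had 11.8 and 7.80 CPM in TCRb-/- and 9.08 and 6.35 CPM in WT, and both libraries of experiment 2 were lower. Its experiment difference of -0.50 (SE 0.17) did not pass without the block (limma adjusted p = 0.0694) and passed with it (adjusted p = 0.0345). The blocked call was lost with the length trend removed, at -0.31 and a limma adjusted p of 0.153, and over the other alternatives without the block the adjusted p ran from 0.0658 to 0.1002. Leaving out a library moved the difference from -0.33 without TCRb-/- replicate 1 (limma adjusted p = 0.318) to -0.66 without WT replicate 1, and it passed without TCRb-/- replicate 2 (limma adjusted p = 0.0420). Per length Lamb1 was 1.42 to 2.01 times Lamb2, lowest in TCRb-/- replicate 2.

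Lamb3, an epithelial beta chain that assembles with Lama3, had 10.09 and 9.76 CPM in TCRb-/- and 7.90 and 8.77 CPM in WT, so the genotypes did not overlap. Its difference of 0.23 (SE 0.17) did not pass. The partner chain Lama3 had 1.10 and 1.55 CPM in TCRb-/- and 0.992 and 1.07 CPM in WT, with no overlap but a margin of 27 against 24 reads at its narrowest. Between experiments Lamb3 differed by 0.05 (SE 0.16) and Lama3 by 0.17 (SE 0.20), and neither passed. Lama5, the alpha chain of mature vessels, had 2.77 and 2.80 CPM in TCRb-/- and 2.63 and 2.06 CPM in WT, again without overlap, and its difference of 0.18 (SE 0.21) did not pass. Lama1 lay at 0.716 to 1.297 CPM, and Lama4 and Lamc3, with means of 0.578 and 0.555 CPM, were under the filter.

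Agrn, agrin, had 32.1 and 21.8 CPM in the TCRb-/- libraries of experiments 1 and 2 and 29.3 and 22.6 CPM in the WT libraries. Agrn fell by 0.45 between experiments (SE 0.098, limma adjusted p = 0.0174), and without TCRb-/- replicate 1 the difference was -0.38 with a limma adjusted p of 0.0889, while over the other alternatives the adjusted p ran from 0.0167 to 0.114. The genotypes overlapped, with differences of 0.13 and -0.05. The nidogens, which bridge laminin and type IV collagen, had experiment differences of opposite sign, -0.68 for Nid1 and 0.42 for Nid2, and neither passed. Nid1 had 3.42 and 1.10 CPM in TCRb-/- and 1.91 and 1.39 CPM in WT. Nid2 had 3.09 and 5.50 CPM in TCRb-/- and 2.71 and 3.18 CPM in WT; its exons share 437 bases with Rtraf on the opposite strand.

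Sparc, which binds collagen and chaperones type IV collagen, had 158.7 and 317 CPM in the TCRb-/- libraries of experiments 1 and 2 and 155.1 and 263 CPM in the WT libraries. Sparc rose between experiments by 0.88 (SE 0.091, limma adjusted p = 0.00386), and this was the one experiment call among the members that held under every alternative and without each library in turn, with adjusted p up to 0.0444. The genotypes overlapped, with differences of 0.03 and 0.27. As a percent of the choroid plexus sum, Sparc ran from 6.40% to 19.8%, a wider range than its own CPM of 2.05 times. The sum of the 6 thalamic neuron markers had the same order of libraries as Sparc, at 297 and 556 CPM in TCRb-/- and 286 and 368 CPM in WT, with none at 0. Of the single markers, only Lef1 and Plekhg1 had this order. Tcf7l2, Gbx2 and Rgs16 were lower in TCRb-/- replicate 1 than in WT replicate 1, and Prkcd was higher in TCRb-/- replicate 1 than in WT replicate 2. The choroid plexus epithelium, ependymal and septal neuron marker sums also had the library order of Sparc. The astrocyte sum did not, but its markers Agt and Gjb6 did. Agt had 46.8 and 141.8 CPM in TCRb-/- and 43.2 and 107.7 CPM in WT. The part of any of these cells in the difference of Sparc was not tested. Sparcl1 had 539 and 614 CPM in TCRb-/- and 524 and 531 CPM in WT, without overlap, and its difference of 0.12 (SE 0.13) did not pass. The 10 astrocyte markers summed to 2816 and 2871 CPM in TCRb-/- and to 2560 and 2653 CPM in WT, also without overlap and with none at 0. Fn1, fibronectin, was at 1.10 and 0.700 CPM in TCRb-/- and 1.26 and 0.358 CPM in WT.

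Receptors of this matrix and the genes that build and cut it were described as well. No gene of the 4 lists was called by genotype in either fit. Between experiments, limma called 8.95% of all genes tested higher and 14.7% lower in experiment 2. These shares are the background for the calls named in the 4 lists. Of 27 matrix receptors 24 were listed and 19 tested: Bcam, the Lutheran receptor for laminin alpha 5, rose between experiments, and Itga5, the fibronectin receptor alpha chain, Itgav and Dag1, the dystroglycan that anchors laminin, fell. Itga5 had 5.04 and 0.850 CPM in the TCRb-/- libraries of experiments 1 and 2 and 4.50 and 2.50 CPM in the WT libraries, the order of Col6a1. Of 30 genes for collagen processing and crosslinking 26 were tested, and Crtap, Pcolce and Pcolce2 rose while Adamts3 and Pxdn fell. Pcolce, which enhances the removal of the procollagen C-terminal peptide, had 6.96 and 18.0 CPM in TCRb-/- and 3.59 and 11 CPM in WT, the order of Col8a1. Its blocked genotype difference was 0.73 (limma adjusted p = 0.476). Serpinh1, the collagen chaperone, had 15.9 and 25.9 CPM in TCRb-/- and 13.4 and 17.3 CPM in WT, with a blocked difference of 0.40 (limma adjusted p = 0.848).

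Among matrix proteases and their inhibitors 12 of 16 were listed and tested, and Mmp16, Mmp17 and Mmp24, all membrane-anchored, fell between experiments. Mmp17 had 165.4 and 72.2 CPM in the TCRb-/- libraries of experiments 1 and 2 and 149.9 and 87.4 CPM in the WT libraries. Of the neuronal matrix genes of perineuronal nets 13 of 14 were listed and 11 tested, and Ncan, Hapln1 and Tnr fell, with none rising. The median genotype difference was -0.004 over the listed receptors, 0.11 for processing genes, 0.08 for proteases and -0.12 for perineuronal genes, against 0.13 for the 50 members and 0.0005 for all rows.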

How the data were processed

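Per the labels' protocols, tissue was homogenised, the lysate was cleared of pelleted material, and RNA from it was amplified with a SMARTer low-input kit, so reads are not independent molecules and counting limits cover counting error only. Per the submitters' processing notes, HISAT2 2.1.0, SAMtools 1.3, HTSeq 0.9.1, R 4.0.5, limma 3.46.0 and the mm10 genome were used; the annotation and the strand setting were not given in the sources used here. The deposited values are on a log2 scale, and per the file values each is the log2 of CPM after the authors added 0.5 to the reads and 1 to the total. With the total solved for, reads were whole for 100% of the values within 0.001 reads, 97.6% to 97.8% of each total lay on the listed rows, and a count of 0 allows up to 3 reads, or 0.114 to 0.150 CPM.

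Besides Hspg2, 1 gene that fits the choice by symbol is not reported here, and counts of members leave it out. The 17 spike-in rows were left out, and 12 of the gene rows share a symbol with another row. Reads were rescaled to CPM and taken as log2(CPM + 1), so changes of low genes are understated. A mean of 1 CPM or more was required, and tests used limma 3.58.1 in R 4.3.3 (empirical Bayes with a trend, two-sided, Benjamini-Hochberg over 13912 genes, threshold 0.05), with genotype or experiment as the only term. The fits were tested on simulated reads in which some genes were changed by known folds. Where genotype was simulated, no difference between experiments was put in. That test therefore does not show what the genotype fits can detect in these data. Lengths and overlaps came from GENCODE M21 and promoters from RefSeq (GRCm38.p6). All else was done in Python 3.11.15 with pandas 2.3.3 and matplotlib 3.10.9.

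Replicate numbers are the experiments of the labels and so pair the samples. Across genes, same-numbered libraries deviated together from their genotype means (correlation 0.72), and the experiments parted along component 1 of a principal component analysis, which held 76.7% of the variance. The alternatives were the experiment as a block, other pseudocounts and filters, quantile and median-of-ratios scaling, no trend, a length correction, and each library left out. Replicates differed by far more than sampling noise (chi-square per degree of freedom 53.0 for TCRb-/- and 30.7 for WT). The members, the gene lists and the tests were chosen with earlier results of these data known. Values per library are given for members with a mean of 10 CPM or more, a call, genotypes that do not overlap, or an extreme level or difference in their role list, and ratios and shares of marker sums were chosen after values were seen.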

Additional observations from a re-analysis of the deposited data

Results flagged for a closer look

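For 5 members the genotype difference had opposite signs in experiments 1 and 2, with a size of at least 0.2 on the log2(CPM + 1) scale in each. With 1 library of each genotype per experiment, the difference between the experiments was not tested. The difference in experiment 2 minus that in experiment 1 was -1.43 for Col6a1, -1.003 for Col6a2 and -1.14 for Col6a4, so that these 3 of the 4 type VI chains were higher in TCRb-/- in experiment 1 and lower in experiment 2. For Col9a1 it was 0.98 and for Col5a1 0.83, both lower in TCRb-/- in experiment 1 and higher in experiment 2, at means of 1.32 and 0.758 CPM.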

How the results depend on the processing

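Across the 9 alternatives with all libraries, 312 of 334 values kept their direction and their side of the threshold or moved little, and with 1 library left out 113 of 152 did. Part of this tally was fixed in advance. The block, the filters and moderation without a trend leave the difference of a gene unchanged, and the genotype adjusted p of members started far from the threshold. The number of genes called by genotype was 2 with the replicate block and 2 with the block and the length trend removed, against 0; leaving out 1 library gave 0 to 47, the 47 without TCRb-/- replicate 1, and 0 to 1 members (Col6a1). The block changed no genotype call among the members. The number called by experiment was 1835 with the block and the length trend removed, 629 without a trend, and 1406 to 3390 with 1 library left out, against 3292. Members called by experiment were 3 without a trend (Col4a2, Col16a1 and Sparc) and 5 to 12 with 1 library left out (5 without TCRb-/- replicate 1 and 5 without WT replicate 1), against 10; the cause of these changes was not tested except that fewer samples entered where a library was left out. The median experiment difference was 0.10 over the 9 members above 10 CPM. The median genotype difference of the 35 members was 0.07 without WT replicate 2 and 0.10 without TCRb-/- replicate 1, against 0.18. The genotype difference of Col16a1, near 0, changed sign to 0.0033 with the block and length trend removed. With 1 library left out, the genotype differences ran from -0.23 to 0.31 for Agrn, -0.32 to 0.29 for Col16a1, -0.57 to 0.21 for Col4a2, -1.72 to 0.73 for Col6a1, -1.04 to 0.65 for Col6a2, -0.093 to 1.45 for Col8a1, -0.11 to 0.56 for Lamb1 and -0.35 to 0.65 for Sparc; each such fit sets libraries of unequal experiments against each other and assumes that the lone library varies like the other group, and the cause was not tested. The others kept their sign, at 0.42 to 1.09 for Col17a1, 0.25 to 0.59 for Col18a1, 0.06 to 0.28 for Col25a1, 0.09 to 0.56 for Col6a3, 0.19 to 1.38 for Col8a2, 0.06 to 1.07 for Col9a3, 0.41 to 0.91 for Lama2, 0.05 to 0.33 for Lama3, 0.06 to 0.31 for Lama5, 0.26 to 0.61 for Lamb2, 0.16 to 0.30 for Lamb3, 0.03 to 0.57 for Lamc1 and 0.03 to 0.22 for Sparcl1. Scaling left 23 to 24 members higher in TCRb-/- in both experiments, against 25, and 11 with genotypes apart, against 12, alternatives chosen after seeing the data. Depth limits the 15 members under 1 CPM, with 1 to 33 reads a library.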
